A study of Mus musculus with 96 samples.

Results

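Cytosolic ribosomal protein genes encode the proteins of the ribosome that translates nuclear mRNAs, those of the large 60S subunit (Rpl genes) and of the small 40S subunit (Rps genes). The members were all genes in the count tables whose GENCODE M21 symbol is Rpl or Rps followed by a digit, together with Rplp0, Rplp1, Rplp2 and Rpsa. Kinase genes named Rps6k, symbols with -ps and Rps19bp1 were left out. This gave 88 genes of 19918, 52 of the large and 36 of the small subunit, spread over 19 chromosomes with 4 on the X and 0 on the Y. All 88 passed the filter on low counts in each region and in the fit over both regions. A further 4 symbols that meet the rule in the annotation, Rpl10l, Rpl32l, Rpl39l and Rps12l1, were not analysed here.

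A ribosome holds a single copy of nearly every one of these proteins, so cells make them in near-equal amounts. Vertebrate ribosomal protein mRNAs start with a run of pyrimidines called a TOP motif, through which the mTORC1 kinase pathway and the binding protein Larp1 tie their translation to growth signals. In neurons, ribosomal protein mRNAs are also found in dendrites and axons, and mutations of several of the genes cause Diamond-Blackfan anaemia, a failure of red cell formation.

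The counts come from bulk polyadenylated RNA of tissue punches taken from the prefrontal cortex (PFC) and from the nucleus accumbens (NAc), a ventral part of the striatum, of the same 48 mice. The mice are of the FCG model, in which the Y chromosome lacks the testis-determining gene Sry (written Y-) and an Sry transgene supplies testes. XX and XY- mice have ovaries, and XXSry and XY-Sry mice have testes. Each genotype had unstressed controls and mice given subchronic variable stress, 3 restraint sessions of 1 hour on alternating days within 6 days. There were 5 control and 6 stressed XX mice, 7 control and 6 stressed XY- mice, and 6 of each kind in XXSry and in XY-Sry, from 3 cohorts. Treatment was unevenly mixed over cohorts, with 11 controls and 12 stressed mice in cohort 1, 10 and 2 in cohort 2, and 3 and 10 in cohort 3. No source used here gives their ages. In bulk tissue, fewer cells of a type and less RNA per cell cannot be told apart.

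The total per library ran from 67.6 to 104.4 M counts in the PFC and from 45.9 to 120.8 M counts in the NAc. These totals are above the mean number of reads that the labels give, and whether both mates of a pair were counted is not given in the sources used here. Xist, the RNA of the inactive X, had at least 872.9 counts-per-million units (CPM) in every XX and XXSry library and at most 2.85 CPM in every XY- and XY-Sry library. Markers of cortical excitatory neurons summed to 1954 to 2374 CPM in the PFC and 54.5 to 930.1 CPM in the NAc. Those of striatal projection neurons summed to 107.4 to 188.6 CPM in the PFC and 1689 to 4465 CPM in the NAc. Oligodendrocyte markers summed to 688.9 to 1657 CPM in the PFC and 3515 to 7666 CPM in the NAc.

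The pyrimidine run could be looked for in the RefSeq promoters of GRCm38.p6, where 64 of the 88 members matched, with 76 annotated starts. A window of 30 bases, 15 before the start and 15 from it on, is shown for genes that the results below turn on. Capitals mark each run of pyrimidines that holds C followed by at least 4 further C or T, and the start is the 16th base.

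Rps27 (chr3:90213634-90213663, minus strand): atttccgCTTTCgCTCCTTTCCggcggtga
Rps6 (chr4:86857353-86857382, minus strand): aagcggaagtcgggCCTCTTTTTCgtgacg
Rpl22l1 (chr3:28805493-28805522, plus strand): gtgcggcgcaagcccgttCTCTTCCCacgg
Rpl39 (chrX:37085208-37085237, minus strand): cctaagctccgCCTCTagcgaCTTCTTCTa
Rps4x (chrX:102189377-102189406, minus strand): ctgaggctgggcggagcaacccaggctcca
Rps15 (chr10:80292416-80292445, plus strand): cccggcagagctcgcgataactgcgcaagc

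The windows of Rps27, Rps6, Rpl22l1 and Rpl39 hold such runs, and those of Rps4x and Rps15 hold none. Of the 76 starts of members, 56.6% had a run within the window, against 36.4% of all 32851 annotated starts. The annotated start was itself a C followed by at least 4 further C or T, as in Rps27 and Rps6, in 18.4% of member starts and 2.51% of all. In the 300 bases from 250 before to 50 after the start, on both strands, the ETS-factor motif CCGGAAG was found at 34.2% of member starts and 8.86% of all. The YY1 motif AANATGGC was found at 22.4% against 6.05%, and the SP1 motif GGGCGG at 59.2% against 35.7%. TATAAA was found at 9.21% of member starts against 13.6% of all, and the E-box CACGTG at 10.5% against 7.15%. Overlaps between different motifs were not removed. These matches describe annotated windows, and an annotated start can lie some bases from the one used in these tissues.

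Levels of the members differed widely. Per kilobase of the principal transcript, the highest mean levels in the PFC were those of Rps15 (316.2 CPM per kb), Rplp1 (310.2 CPM per kb), Rpl4 (261.3 CPM per kb), Rps29 (212.4 CPM per kb) and Rpl26 (183.7 CPM per kb). In the NAc they were Rplp1 (359.3 CPM per kb), Rps27 (340.7 CPM per kb), Rpl4 (290.6 CPM per kb), Rps29 (290.2 CPM per kb) and Rps15 (266.9 CPM per kb). Rps15 lies near the decoding centre of the small subunit, Rplp1 belongs to the flexible stalk that recruits elongation factors, and Rpl4 lines the tunnel through which the new chain leaves. The median over the 88 members was 79.9 CPM per kb in the PFC and 98.4 CPM per kb in the NAc. By the summed length of all annotated exons the medians were 32.9 and 40.1 CPM per kb, and 4 of the 5 highest members stayed the same in each region. Rpl26 then stood 15th in the PFC and Rps27 8th in the NAc, and Rps3a1 was among the 5 highest in both.

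The lowest levels in the PFC were those of Rpl3l (0.132 CPM per kb), Rps3a3 (0.626 CPM per kb), Rpl24 (4.69 CPM per kb), Rps3a2 (6.02 CPM per kb) and Rps4l (7.23 CPM per kb). In the NAc they were Rpl3l (0.177 CPM per kb), Rps3a3 (1.13 CPM per kb), Rps4l (6.91 CPM per kb), Rpl24 (8.34 CPM per kb) and Rps3a2 (8.67 CPM per kb). Rpl3l is the heart and muscle copy of Rpl3, and Rps3a2, Rps3a3 and Rps4l are intronless copies. Rpl24 is a core protein of the large subunit, and 81.7% of the 50-base windows of its transcript occur unchanged in another annotated gene. Over all members the median share of such windows was 56.7% (range 0 to 98.6%). How reads that match several genes were counted is not given in the sources used here, so the level of such a member is uncertain. Between PFC libraries the coefficient of variation of a member's CPM had a median of 6.06%, and between NAc libraries 8.98%. Over all genes of at least 10 CPM the medians were close to these, 6.00% in the PFC and 9.49% in the NAc.

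Most members were higher in the NAc than in the PFC. Of the 88, 74 were higher and 6 lower at an adjusted p below 0.05 (edgeR quasi-likelihood test with the animal as a block, Benjamini-Hochberg over 19918 genes), and 8 did not pass. Of all genes tested, 44.4% were called higher and 42.3% lower, 86.6% in either direction. The median log2 fold change of the members, NAc minus PFC, was 0.36, against 0.02 over all genes. Scaling to plain library totals moved the median of all genes to 0.16. It gave 82 members higher and 3 lower (median 0.50), with 10830 of all genes higher and 6633 lower where the scaling used throughout gave 8835 and 8420.

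The summed share of all counts taken by the 88 genes was 0.554% to 0.679% (mean 0.611%, SD 0.0256, n = 48) in the PFC and 0.737% to 0.969% (mean 0.847%, SD 0.0552, n = 48) in the NAc. The ranges of the regions did not overlap. The NAc share was the higher in 48 of 48 animals, by a ratio of 1.16 to 1.61 with a median of 1.40. These shares are of plain library totals, under which the median log2 fold change of all genes was 0.16 rather than 0.02. The summed share with TMM scaling is not given here.

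**Figure D1:**
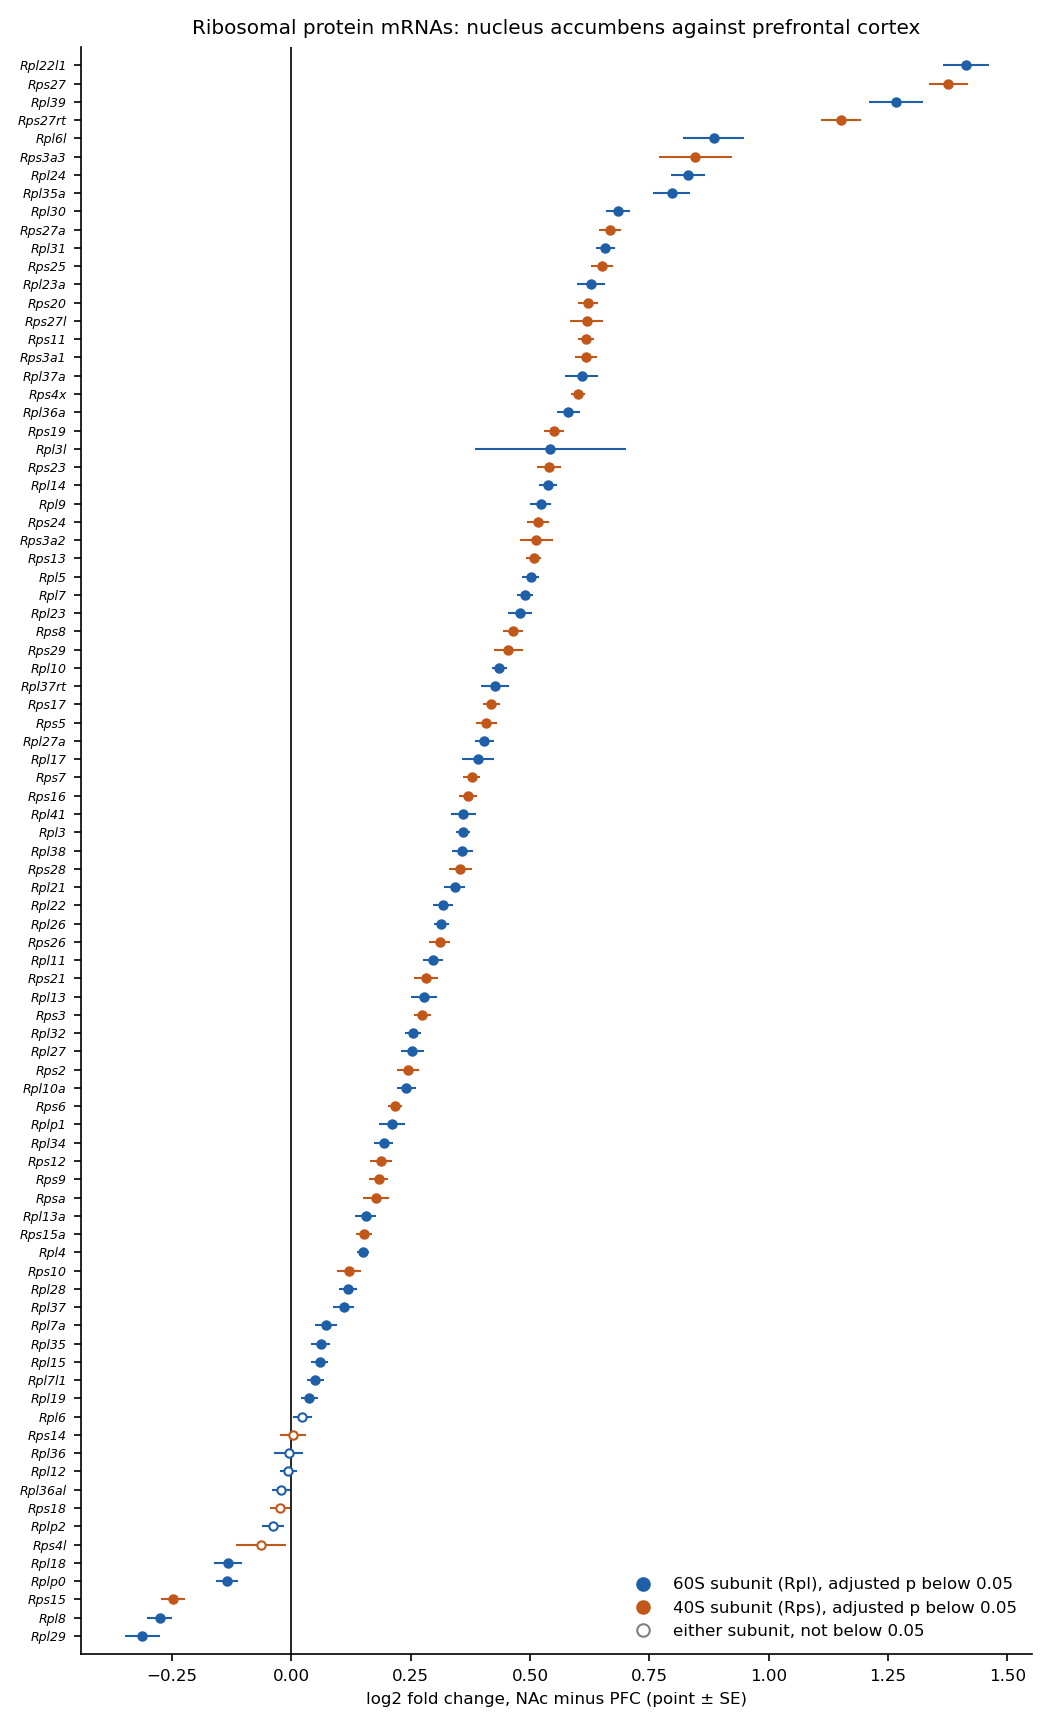
Log2 fold change, NAc minus PFC, of 87 of the 88 ribosomal protein genes (point) with its SE (bar), sorted by size, with 60S genes in blue and 40S genes in orange, and points filled where the adjusted p was below 0.05. Values run from -0.31 for Rpl29 to 1.41 for Rpl22l1, and 76 of the 87 lie above 0.

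Rpl22l1 (chromosome 3, 28805436 to 28807424, GRCm38), a copy of Rpl22 that can take its place in the ribosome, had 17.7 to 30.7 CPM (median 24.6) in the PFC and 37.5 to 93.5 CPM (median 68.9) in the NAc. The ranges do not overlap, and its NAc value was the higher in 48 of 48 animals. Its log2 fold change was 1.41 (adjusted p by edgeR 2.86e-28, SE 0.0480). Rpl22 itself, an RNA-binding protein of the large subunit, had 53.4 to 65.8 CPM (median 58.1) in the PFC and 60.9 to 88.1 CPM (median 73.3) in the NAc, with a log2 fold change of 0.32 (SE 0.0210). Per kilobase, Rpl22l1 held 26.7% in the PFC and 44.1% in the NAc of the summed level of the pair. By summed exon length its share was 38.4% (PFC) and 57.4% (NAc), so the length used decides which of these genes is the higher in the NAc.

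Rps27 (chromosome 3, 90212522 to 90213651), a zinc-finger protein of the small subunit, had 35.8 to 54.3 CPM (median 44.7) in the PFC and 77.5 to 144.7 CPM (median 119.8) in the NAc. Again the ranges stand apart. The log2 fold change was 1.38 (adjusted p by edgeR 4.31e-31, SE 0.0403). Its copy Rps27rt had medians of 4.37 and 9.55 CPM (1.15, SE 0.0413). Of the 50-base windows of Rps27, 98.6% occur in Rps27rt, so the values of Rps27 and Rps27rt are not separate measurements. Rps27l, a paralog induced by p53, had medians of 4.23 and 6.57 CPM (0.62, SE 0.0342).

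Rpl39 (X chromosome, 37082520 to 37085402), a small protein of the exit tunnel, had 13.7 to 24.5 CPM (median 17.8) in the PFC and 22.7 to 59.8 CPM (median 46.7) in the NAc. The ranges overlap slightly, and its NAc value was the higher in 48 of 48 animals. The log2 fold change was 1.27 (adjusted p by edgeR 1.93e-23, SE 0.0573), and 16.5% of its windows are shared. Rpl6l, a copy of Rpl6, was higher by 0.89 (SE 0.0637). Rpl24, which forms a bridge between the subunits, had 2.23 to 4.004 CPM (median 3.17) in the PFC and 4.54 to 7.11 CPM (median 5.61) in the NAc (0.83, SE 0.0350).

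**Figure D2:**
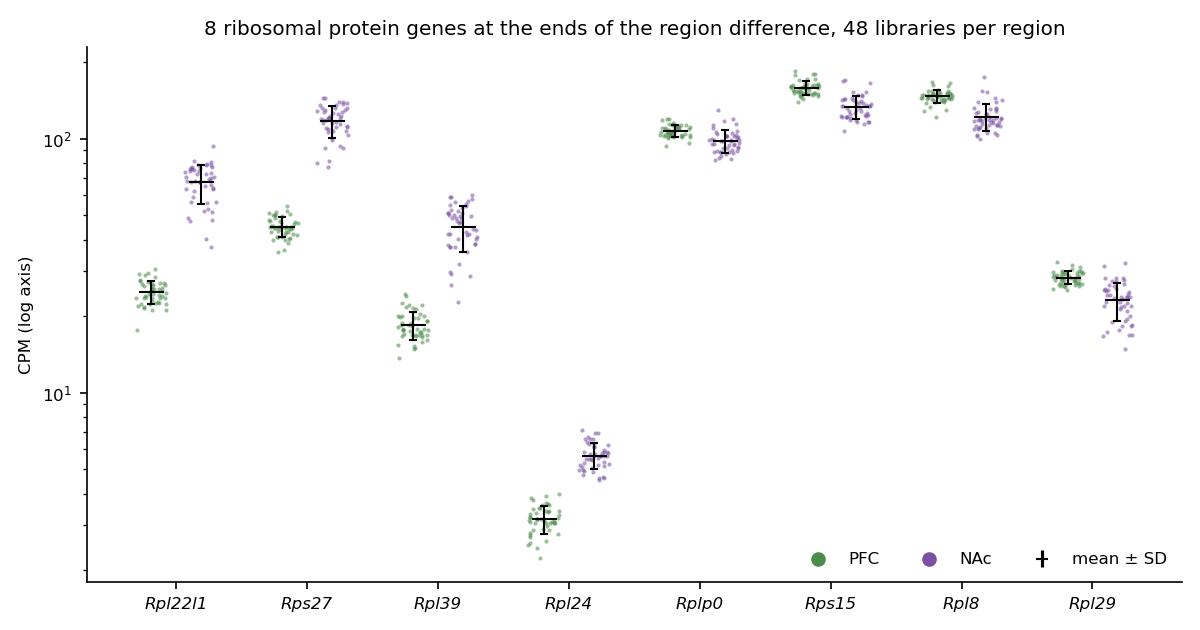
CPM on a log axis of 8 ribosomal protein genes (Rpl22l1, Rps27, Rpl39, Rpl24, Rplp0, Rps15, Rpl8, Rpl29) in each of 48 PFC libraries (green) and 48 NAc libraries (purple), with mean and SD in black. The ranges stand apart for Rpl22l1, Rps27 and Rpl24, and overlap for the others.

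The members lower in the NAc differed by less. Rpl29, a peripheral protein of the large subunit, had 25.4 to 32.6 CPM (median 28.3) in the PFC and 14.9 to 32.4 CPM (median 23.7) in the NAc. The ranges overlap, and its NAc value was the higher in 4 of 48 animals. The log2 fold change was -0.31 (adjusted p by edgeR 3.01e-10, SE 0.0376), and 66.6% of its windows are shared. Rpl8, close to the peptidyl transferase centre, had medians of 146.3 and 118.4 CPM (-0.28, SE 0.0259). Rps15 had medians of 158.0 and 133.4 CPM (-0.25, SE 0.0253). Rplp0, the base of the stalk, stood at -0.13 (SE 0.0227) and Rpl18 at -0.13 (SE 0.0291). With library totals Rplp0 stood at 0.01 and Rpl18 at 0.01.

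By role, all 8 members of the peptide exit tunnel were higher in the NAc (median 0.35, from 0.04 to 1.27). Both proteins that bind 5S rRNA, and that bind the p53 regulator Mdm2 when assembly fails, were higher, Rpl5 by 0.50 (SE 0.0187) and Rpl11 by 0.30 (SE 0.0206). Of the 5 members at the mRNA entry channel and decoding centre, 4 were higher and Rps15 was lower. Of 6 members at subunit joining and bridges, 5 were higher and Rpl8 was lower. The stalk was mixed, with Rplp1 higher by 0.21 (SE 0.0280), Rplp0 lower, and Rplp2 at -0.04 (adjusted p by edgeR 0.117, SE 0.0230). Of 17 members mutated in Diamond-Blackfan anaemia, 16 were higher and Rpl18 was lower. All 4 X-linked members were higher, Rpl39 as above, Rps4x by 0.60 (SE 0.0148), Rpl36a by 0.58 (SE 0.0245) and Rpl10 by 0.44 (SE 0.0157).

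The median was 0.31 for the 52 large-subunit members (42 higher, 5 lower) and 0.41 for the 36 of the small subunit (32 higher, 1 lower). The genes listed as parents of paralogs were all higher (8 of 8), though Rpl22 was lower with the GC and length offsets given below. The 8 include Rpl10 and Rpl39, whose copies Rpl10l and Rpl39l were not analysed here. Also among the 8 were Rpl3 (0.36, SE 0.0146) and Rpl7 (0.49, SE 0.0166). Of the 7 measured paralogs 5 were higher, including Rpl3l (0.54, SE 0.159) and Rpl7l1 (0.05, SE 0.0179). The other 2, Rpl36al (-0.02, SE 0.0184) and Rps4l (-0.06, SE 0.0517), did not pass, while their parents Rpl36a and Rps4x were higher. Per kilobase, Rpl36al made up 33.9% in the PFC and 25.2% in the NAc of the summed level of its pair with Rpl36a, and Rps4l 5.50% in the PFC and 3.53% in the NAc of its pair with Rps4x. By summed exon length Rpl36al made up 40.6% (PFC) and 30.9% (NAc), and Rps4l 8.88% (PFC) and 5.77% (NAc). In 21 of the 88 members (23.9%) the ranges of the regions did not overlap, against 16.4% of all 19918 genes. In 37 members the NAc value was the higher in every animal, and in 0 the lower in every animal, against 15.7% and 16.6% of all genes.

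Genes that work with the ribosome differed in direction from list to list. Of the ribosomal proteins with other symbols, Fau (0.07, SE 0.0273) and Rack1 (0.09, SE 0.0215) were higher. Among 7 elongation factor genes 3 were higher and 4 lower, with Eef1a1 at 0.41 (SE 0.0160) and its neuronal counterpart Eef1a2 at -1.05 (SE 0.0281). Of 12 other TOP mRNAs 11 were higher and 0 lower (median 0.25), among them Tpt1 (0.27, SE 0.0239) and Naca (0.49, SE 0.0183). Of 25 ribosome biogenesis genes 6 were higher and 14 lower (median -0.05), with Fbl, which methylates rRNA, at -0.26 (SE 0.0243). Of 17 genes of mTORC1 and TOP control 5 were higher and 10 lower, with the kinase gene Mtor at -0.22 (SE 0.0167) and Rptor, a subunit of the complex, at -0.57 (SE 0.0212). The 77 mitochondrial ribosomal proteins had a median of 0.01 (35 higher, 32 lower).

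Cell markers moved with the region difference. All 7 oligodendrocyte markers were higher in the NAc (median 2.33), as were all 8 of striatal projection neurons, and all 6 of cortical excitatory neurons were lower (median -2.64). Their part in the region difference of the ribosomal protein genes was not tested. GC content moved with it too. The 29 members of lowest transcript GC content (40.6% to 49.2%) were all higher in the NAc with a median of 0.54, where all genes of that range had a median of 0.17. Among the next 29, 25 were higher and 1 lower (median 0.31, all genes -0.0012). Among the 30 of highest GC content (53.6% to 60.8%) 20 were higher and 5 lower (median 0.17, all genes -0.25).

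With offsets that follow each library's dependence on GC content and length, an alternative chosen after seeing the data, these medians were 0.29, 0.16 and 0.24. The median of all 88 was then 0.26, with 72 higher and 9 lower. Rpl22l1 stood at 0.99 (SE 0.0276), Rps27 at 1.15 (SE 0.0308), Rpl39 at 1.00 (SE 0.0461) and Rpl8 at -0.06 (SE 0.0133). Called members whose direction turned were Rpl18 (-0.13 to 0.06 with SE 0.0162), Rpl22 (0.32 to -0.03 with SE 0.0148), Rpl37 (0.11 to -0.10 with SE 0.0228) and Rps12 (0.19 to -0.09 with SE 0.0210), named here after their values were seen. Of 11 members with under 20% of windows shared 9 were higher and 1 lower (median 0.27), and of 20 with at least 80% shared 18 were higher and 0 lower (median 0.43).

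**Figure D3:**
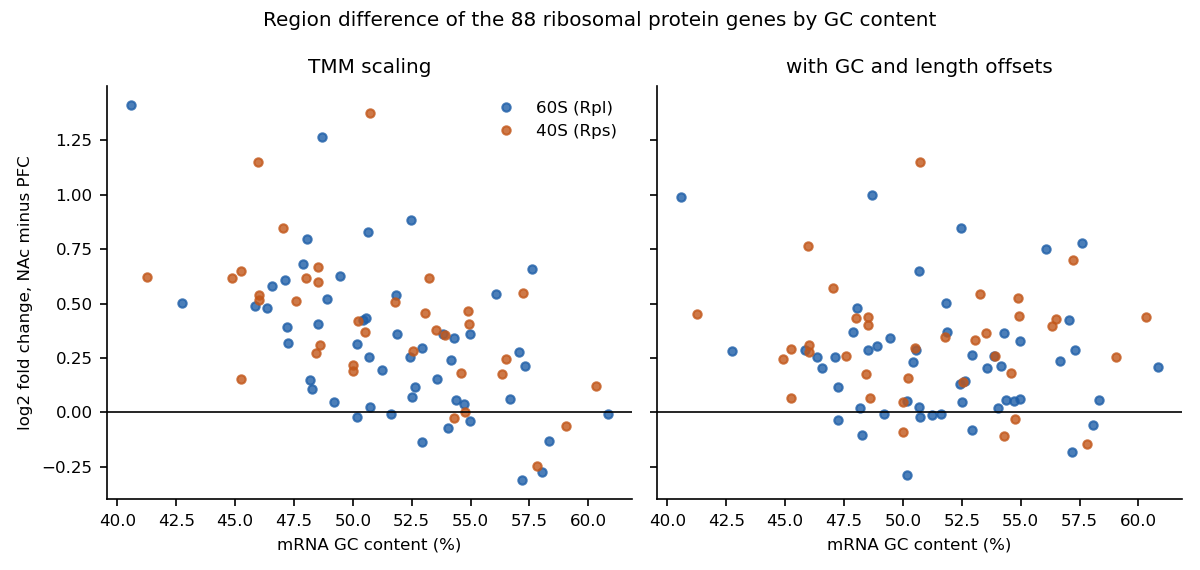
Log2 fold change, NAc minus PFC, of the 88 ribosomal protein genes against the GC content of the transcript in percent, with TMM scaling (left) and with GC and length offsets (right), 60S genes in blue and 40S genes in orange. The median over all 88 is 0.36 on the left and 0.26 on the right.

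Stress moved no member past the threshold. In the PFC edgeR called 0 of 88 (0.0% of all genes), 4 had an unadjusted p under 0.05 (5.92% of all genes), and DESeq2 called 0. The median log2 fold change, stress minus control, was 0.0032. Rps15a, a small-subunit protein, had the smallest p, with 97.4 to 111.0 CPM (median 104.8) in controls and 103.2 to 117.9 CPM (median 107.9) after stress. The ranges overlap, and the log2 fold change was 0.06 (adjusted p by edgeR 0.480, SE 0.0180). Rps27l stood at -0.15 (SE 0.0513) and Rps6, the target of S6 kinase, at 0.06 (SE 0.0229).

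In the NAc edgeR called 0 of 88 (0.0% of all genes), 3 had an unadjusted p under 0.05 (4.59% of all genes) and DESeq2 called 0, with a median of -0.01. Rpl29 stood at -0.21 (adjusted p by edgeR 0.997, SE 0.0758), Rpl41 at -0.09 (SE 0.0423) and Rpl10a at -0.07 (SE 0.0361). The test of a different response to stress in the NAc than in the PFC called 0 of 88 by edgeR (0.0% of all genes) and 0 by DESeq2. It had 4 members at an unadjusted p under 0.05 (4.97% of all genes). Rpl29 had the smallest p there (-0.22, adjusted p by edgeR 0.956, SE 0.0845), followed by Rpl28 (-0.09, SE 0.0416) and Rpl41 (-0.12, SE 0.0573).

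Within single genotypes the PFC medians of the members lay on either side of 0, and edgeR and DESeq2 called 0 members in each (0.0% of all genes in each). In XX mice the median was 0.03, with 73 of 88 above 0 and 2 at an unadjusted p under 0.05 (3.04% of all genes). Without the control labelled 29 it was 0.00079, and without the stressed mouse labelled 43 it was 0.054. In XXSry mice it was -0.05, with 69 below 0 and 6 at an unadjusted p under 0.05 (5.94% of all genes), and -0.029 without the control labelled 39. In XY- mice it was -0.07, with 78 below 0 and 20 at an unadjusted p under 0.05 (9.16% of all genes). In XY-Sry mice it was 0.09, with 83 above 0 and 33 at an unadjusted p under 0.05 (6.33% of all genes).

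Among XY- mice Rps21, a small-subunit protein, had 63.1 to 73.5 CPM (median 70.0) in controls and 55.9 to 69.5 CPM after stress, a log2 fold change of -0.18 (adjusted p by edgeR 0.282, SE 0.0518). Rpl26, at the tunnel, stood at -0.11 (SE 0.0343) and Rpl39 at -0.26 (SE 0.0970) in the same mice. Among XY-Sry mice Rpl35, also at the tunnel, had 54.6 to 62.4 CPM (median 58.8) in controls and 61.0 to 69.0 CPM after stress, 0.15 (adjusted p by edgeR 0.693, SE 0.0466). Groups overlap for both genes. Rpl41 stood at 0.17 (SE 0.0548) and Rps6 at 0.13 (SE 0.0428). In XX mice the smallest p values were those of Rps27l (-0.23, SE 0.0996), Rps27rt (0.23, SE 0.114) and Rps15a (0.07, SE 0.0349). In XXSry mice they were those of Rplp1 (-0.17, SE 0.0651), Rpl36al (-0.10, SE 0.0428) and Rps15 (-0.10, SE 0.0435).

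In the PFC the summed share of counts was 0.631% ± 0.0333 (SD, n = 7) in XY- controls and 0.605% ± 0.0103 (SD, n = 6) in stressed XY- mice. It was 0.603% ± 0.0158 (SD, n = 6) in XY-Sry controls and 0.637% ± 0.0209 (SD, n = 6) after stress. In XX mice it was 0.593% ± 0.0248 (SD, n = 5) in controls and 0.620% ± 0.0178 (SD, n = 6) after stress. In XXSry mice it was 0.605% ± 0.0229 (SD, n = 6) and 0.590% ± 0.0164 (SD, n = 6). Groups overlap in each genotype. These shares are not adjusted for cohort, and the mean over all PFC libraries was 0.602% in cohort 1, 0.610% in cohort 2 and 0.629% in cohort 3. Of the XY-Sry mice, 4 of 6 controls came from cohort 2 and 3 of 6 stressed mice from cohort 3. Within cohorts 1, 2 and 3 the XY-Sry control means were 0.581%, 0.602% and 0.627% and the stressed means 0.630%, 0.626% and 0.645%, the stressed being higher in each, with 1 to 4 mice a group. Within cohorts 1 and 3 the XY- means were 0.624% and 0.650% in controls and 0.604% and 0.606% after stress, the stressed being lower in both, and cohort 2 held no stressed XY- mouse. In the NAc the XY- control share, 0.889% ± 0.0514 (SD, n = 7), was the highest group mean, and that of stressed XX mice, 0.816% ± 0.0818 (SD, n = 6), the lowest.

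**Figure D4:**
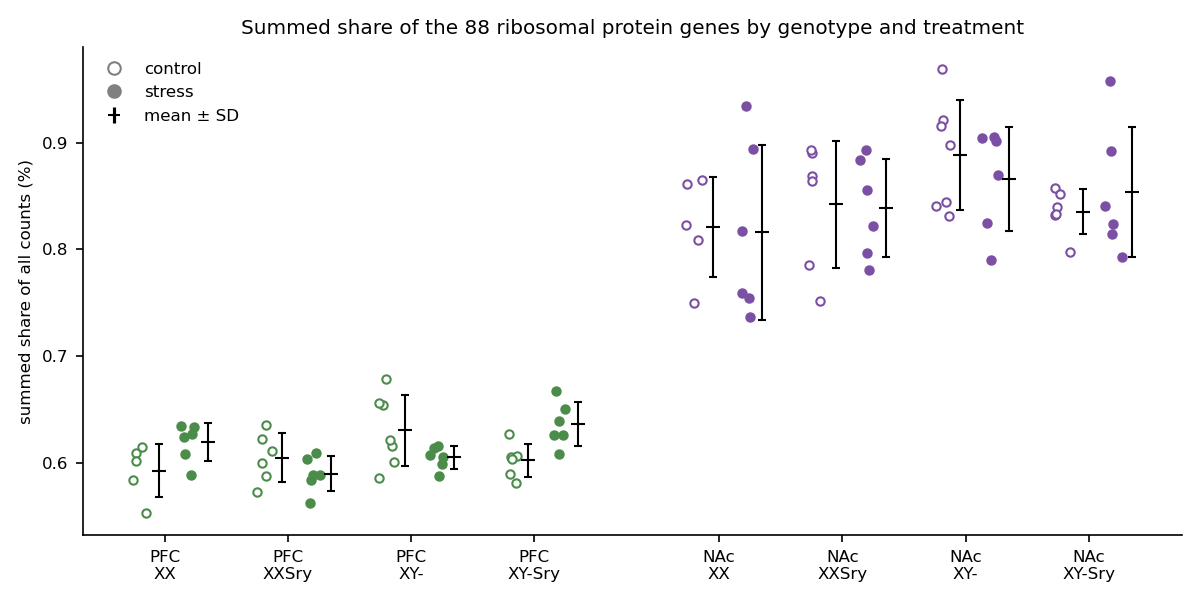
Percent of all counts taken by the 88 ribosomal protein genes in each library, by region and genotype, with controls as open and stressed mice as filled points and the mean and SD in black. On this scale of plain library totals every NAc library lies above every PFC library, and controls and stressed mice overlap in each genotype.

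Differences between genotypes in the response to stress were tested as interactions. In the PFC the stress-by-gonads contrast called 0 of 88 by edgeR (0.0% of all genes), with a median of 0.04 and 79 of 88 above 0 (52.5% of all genes). The 2 members at an unadjusted p under 0.05 (6.91% of all genes) were Rps13 (0.10, SE 0.0416) and Rpl37rt (0.15, SE 0.0721). The stress-by-chromosomes contrast called 0 by edgeR (0.0% of all genes), with a median of -0.01. The 2 members at an unadjusted p under 0.05 (3.15% of all genes) were Rpl36al (-0.09, SE 0.0421) and Rps2 (-0.11, SE 0.0545). DESeq2 called 0 members in both. In the NAc, stress by gonads and stress by chromosomes each called 0 members by edgeR (0.0% of all genes in each) and 0 by DESeq2. Each had 0 members at an unadjusted p under 0.05 (2.92% and 3.03% of all genes). NAc medians within genotypes were -0.02 in XX, -0.01 in XXSry, -0.05 in XY- and 0.03 in XY-Sry. Leaving out 1 library moved each of these NAc medians by over 1.5 times. The XXSry median was 0.0075 without control 11, 0.00052 without control 39 and 0.0061 without stressed mouse 28, so its direction turned. The XY-Sry median turned to -0.01 without stressed mouse 23, and with 2 surrogate variables both turned, to 0.012 and -0.0016. The XX median ran from -0.067 without stressed mouse 20 to -0.00053 without stressed mouse 9, and the XY- median was -0.025 without control 13. Within NAc genotypes edgeR and DESeq2 called 0 members in each (0.0% of all genes in each), with 2, 0, 3 and 0 at an unadjusted p under 0.05. Of all genes 3.77%, 2.51%, 4.44% and 6.15% were under that p. The smallest p belonged to Rpl29 in XX (-0.36, SE 0.149), Rpl36al in XXSry (-0.11, SE 0.0583), Rpl31 in XY- (-0.16, SE 0.0634) and Rplp2 in XY-Sry mice (0.15, SE 0.0762).

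A contrast of all 3 factors was added after the values within genotypes had been seen, and so describes a pattern that was already in view. It sets the difference in stress response between XXSry and XX mice against that between XY-Sry and XY- mice. In the PFC edgeR called 0 members (0.0% of all genes). Its median was -0.23, with 85 of 88 below 0 and 54 at an unadjusted p under 0.05, against 7.56% of all genes and a median of -0.01. The smallest p belonged to Rpl35 (-0.38, SE 0.0893), with an adjusted p by edgeR of 0.341, followed by Rps15 (-0.34, SE 0.0861) and Rpl37 (-0.34, SE 0.0879). DESeq2 gave an adjusted p for 10 of the 88 members there and called 2 of them lower. These were Rps15 (-0.33, SE 0.0868, DESeq2 adjusted p = 0.0237) and Rpl8 (-0.29, SE 0.0828, DESeq2 adjusted p = 0.0487), the latter named after its value was seen. The share of all genes that DESeq2 called there is not given here, so these 2 calls have no background beside them. Cohort 1 alone held all 8 groups, with 1 library in the smallest. There the same difference of mean log2 CPM, for which no test was made, had a median of -0.23 with 84 of 88 below 0. The 23 libraries of cohort 1 are also part of the full fit, so this is not a separate check. The members also vary together between libraries, as given below, so their number on 1 side is not a number of separate observations. In the NAc edgeR called 0 members (0.0% of all genes) and DESeq2 0, with 1 at an unadjusted p under 0.05 (5.85% of all genes) and a median of -0.07. That median turned to 0.021 with 2 surrogate variables. It was -0.11 without XXSry control 34, -0.04 without XX control 35, -0.038 without stressed XY-Sry mouse 23 and -0.033 without stressed XX mouse 20. The smallest p there belonged to Rpl31 (-0.27, SE 0.130). Whether the contrast differs between the regions was not tested.

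Other genes stood beside these PFC values. In XY-Sry mice all 7 oligodendrocyte markers stood above 0 (median 0.36) and all 7 of meninges and fibroblasts below 0 (median -0.44), with 0 called by edgeR. In the contrast of all 3 factors 66 of 77 nuclear oxidative phosphorylation genes stood below 0 (median -0.15), as did 64 of 77 mitochondrial ribosomal proteins (median -0.09) and 10 of 13 mitochondrially encoded RNAs (median -0.32), with 0 called by edgeR. Nuclear oxidative phosphorylation genes stood above 0 in 75 of 77 (median 0.09) in XY-Sry and below 0 in 65 of 77 (median -0.05) in XY- mice. Their part in the values of the ribosomal protein genes was not tested. With GC and length offsets the PFC medians of the members were -0.03 in XY- and 0.04 in XY-Sry mice, and -0.10 for the contrast of all 3 factors, where 18 members had an unadjusted p under 0.05. The share of all genes under that p with these offsets is not given here, so the 18 have no background beside them.

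By sex chromosome complement, 1 member passed. XX minus XY called Rps4l lower in the PFC, against 0.84% of all genes called lower, 0.28% called higher and 1.12% in either direction. Rps4l (chromosome 6, 148354656 to 148355598, plus strand) is a copy of the X-linked Rps4x, annotated as a transcribed processed pseudogene. It had 4.10 to 7.08 CPM (median 6.30) in XX mice and 3.76 to 8.73 CPM (median 5.61) in XXSry mice. It had 5.98 to 10.2 CPM (median 7.37) in XY- mice and 5.44 to 9.21 CPM (median 7.23) in XY-Sry mice. The ranges overlap, and 20 of 23 libraries of XX complement lay below the XY median. The log2 fold change was -0.32 (adjusted p by edgeR 0.0118, SE 0.0721), and DESeq2 called the same number of members, 1.

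Within cohorts 1, 2 and 3 the Rps4l difference was -0.38, -0.23 and -0.34, with edgeR adjusted p of 0.0683, 1.000 and 0.919. In cohort 1 alone the member called was Rpsa, the laminin receptor protein of the small subunit, named after its value was seen (-0.10, edgeR adjusted p = 0.0235). Rps4l lies opposite Tmtc1, which had 107.3 CPM and a log2 fold change of -0.02 (SE 0.0246). Whether the counting used strand is not given in the sources used here, so reads of Rps4l and Tmtc1 may not be separated. In the NAc Rps4l stood at -0.18 (adjusted p by edgeR 0.820, SE 0.0881). The test of a different effect in the NAc than in the PFC gave 0.13 (adjusted p by edgeR 0.942, SE 0.108).

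The 4 X-linked members did not pass. In the PFC Rps4x had 105.5 to 132.9 CPM (median 119.2) in mice of XX complement and 115.1 to 130.9 CPM (median 121.8) in mice of XY complement, a log2 fold change of -0.04 (SE 0.0209). Rpl10, which joins the large subunit late in assembly, stood at -0.03 (SE 0.0173), Rpl36a at -0.01 (SE 0.0258) and Rpl39 at 0.01 (SE 0.0517). In the NAc Rps4x stood at -0.05 (SE 0.0283), Rpl10 at -0.05 (SE 0.0287), Rpl36a at -0.07 (SE 0.0423) and Rpl39 at -0.13 (SE 0.0958).

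The median of the members by chromosome complement was -0.03 in the PFC, with 73 of 88 below 0 and 15 at an unadjusted p under 0.05 (11.6% of all genes). Within cohorts 1, 2 and 3 it was -0.051, 0.023 and 0.00014. It was -0.03 in the NAc, with 74 of 88 below 0, and 0.0031, -0.068 and -0.065 within the cohorts. In the NAc edgeR called 0 (0.599% of all genes in either direction, 0.523% lower), with 8 at an unadjusted p under 0.05 (5.94% of all genes) and 0 by DESeq2. After Rps4l the smallest p in the PFC belonged to Rpl14 (-0.05, SE 0.0181) and Rps16 (-0.06, SE 0.0215). In the NAc it belonged to Rpl14 (-0.08, SE 0.0370), Rps27a (-0.09, SE 0.0400), which is made as a fusion with ubiquitin, and Rps27l (-0.11, SE 0.0497). In the PFC microglial markers stood below 0 in 7 of 9, blood cell markers in 5 of 5 and those of meninges and fibroblasts in 7 of 7, and their part was not tested. The region-by-chromosomes contrast called 0 members by edgeR (0.0151% of all genes), with 2 at an unadjusted p under 0.05 (4.79% of all genes) and 0 by DESeq2. Those 2 were Rpl22l1 (-0.24, SE 0.0983) and Rps27l (-0.16, SE 0.0710).

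Gonad type moved no member past the threshold. Testes minus ovaries called 0 of 88 by edgeR in the PFC (0.0467% of all genes) and 0 by DESeq2, with a median of -0.0029. There 1 member had an unadjusted p under 0.05 (6.83% of all genes). That member was Rpl3, near the peptidyl transferase centre (0.04, SE 0.0160). In the NAc edgeR called 0 (0.0102% of all genes), with a median of 0.0035, 2 at an unadjusted p under 0.05 (9.22% of all genes), and 0 by DESeq2. Those were Rpl22 (0.09, SE 0.0367) and Rpl5 (0.07, SE 0.0370). The region-by-gonads contrast called 0 by edgeR (0.0% of all genes), with 0 at an unadjusted p under 0.05 (5.25% of all genes) and 0 by DESeq2. Chromosomes by gonads called 0 in each region by edgeR and by DESeq2 (0.0% of all genes in each). At an unadjusted p under 0.05 were 0 members in the PFC (4.39% of all genes) and 1, Rpl3l (0.87, SE 0.346), in the NAc (2.88% of all genes). Rpl3l lies near the floor, with a mean of 0.24 CPM and as few as 6 counts in a NAc library.

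The members varied together from library to library. After group and cohort had been removed, between 8 and 75 of the 88 members lay above their own mean in a PFC library, and between 7 and 85 in a NAc library. Over all genes the share above the mean ran from 46.1% to 54.4% in the PFC and from 48.9% to 54.4% in the NAc. TMM scaling itself centres each library, so that share is held narrow. With library totals it ran from 43.6% to 61.4% in the PFC and from 40.4% to 62.8% in the NAc. Between 6 and 82 members (PFC) and between 3 and 86 (NAc) then lay above their mean. With TMM scaling, as in the rest of this paragraph, at least 66 members lay on 1 side in 15 of 48 PFC libraries and in 25 of 48 NAc libraries. On the log2 scale the median deviation of the members varied with an SD of 0.0420 between PFC libraries and 0.0763 between NAc libraries. An animal had its PFC and NAc medians on the same side of 0 in 21 of 48 cases.

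**Figure D5:**
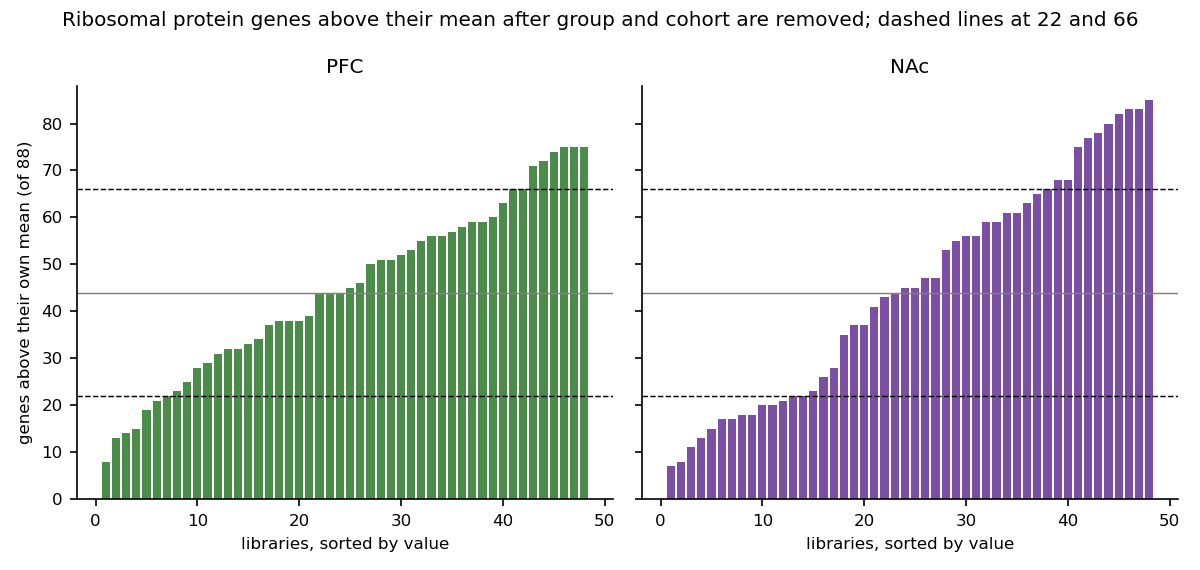
Number of the 88 ribosomal protein genes above their own mean in each library once group and cohort are removed, libraries sorted by value, for the PFC (left) and the NAc (right), with a grey line at 44 and dashed lines at 22 and 66. The counts run from 8 to 75 in the PFC and from 7 to 85 in the NAc.

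A member lay on the same side as the median of the other members in 20 to 40 of 48 PFC libraries (median 31.5) and in 24 to 45 of 48 NAc libraries (median 35). At least 32 libraries were reached by 44 of 88 members in the PFC and 64 of 88 (72.7%) in the NAc. Of the other genes of at least 10 CPM, 4.40% and 5.48% reached as many. The median of nuclear oxidative phosphorylation genes was on the side of the members in 36 of 48 PFC and 29 of 48 NAc libraries, that of mitochondrial ribosomal proteins in 33 of 48 PFC and 33 of 48 NAc libraries, and that of ribosome biogenesis genes in 16 of 48 PFC and 28 of 48 NAc libraries. Elongation factors were on the side of the members in 24 of 48 PFC and 35 of 48 NAc libraries, and the 12 other TOP mRNAs in 33 and 30. Over the lists of cell markers this ran from 18 (meninges and fibroblasts) to 30 (oligodendrocytes) of 48 PFC libraries. In the NAc it ran from 15 (cortical excitatory neurons) to 32 (choroid plexus and ependyma) of 48 libraries. Cortical excitatory neuron markers were on the side of the members in 21 of 48 PFC libraries, and their NAc median varied with an SD of 0.86. Libraries share depth and tissue makeup, and the part of either was not tested.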

How the data were processed

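Counts were deposited by the authors as whole numbers per Ensembl gene, in a table for the PFC and another for the NAc, each with 48 libraries and the same 19918 IDs. The submitters' processing notes name HISAT2 2.2.0, Trimmomatic 0.38, FastQC 0.11.9, DESeq2 and edgeR, with GRCm38 (mm10) as the build. No source used here gives the counting tool, its strand setting or the annotation. Symbols, coordinates, transcript length and GC content came from GENCODE M21 (19795 IDs found, 123 not).

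The members, the gene lists and the rule for named genes were chosen with earlier results of these data known. The rule takes, per contrast, the called members at each end of the log2 fold change, 5 a side, or, with fewer than 3 calls, the 3 smallest p. It adds the members of the role lists and the 5 highest and 5 lowest levels per kilobase. For contrasts with 0 calls, not all 3 are printed. Some genes are not reported here.

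Each region was tested with edgeR 4.0.16 (R 4.3.3; robust quasi-likelihood fit, TMM scaling, filterByExpr), modelling 8 groups and the cohort, over 19292 genes in the PFC and 19684 genes in the NAc. Adjusted p means Benjamini-Hochberg over every gene of a fit, with 0.05 as the threshold. The comparison of regions used all 96 libraries, 19918 genes, and each animal as a block with the cohort within region. The pairing comes from the animal number that both titles of a mouse carry. SE is the log2 fold change over the root of F, and CPM uses TMM library sizes. Each library of a region is from a separate animal, per the labels. Between libraries of a group, chi-square over its degrees of freedom was at least 6.42, so no 2 agreed within sampling noise.

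Alternatives were DESeq2 1.42.0, library totals, TMM without the members, 2 other filters, no cohort term, 2 surrogate variables (sva 3.50.0), each cohort alone, each library left out, no block and unstressed mice alone. GC and length offsets, summed exon length and the contrast of all 3 factors were added after seeing the data. Fits of the region comparison without an animal kept the dispersion trend of the full fit, and were run for the 5 XX controls. Scripts were tested on simulated data. Measured genes on the opposite strand overlap 18 members, among them Rps4l, Rps27rt, Rpl3, Rpl5, Rpl18, Rpl31, Rpl35 and Rps2, and genes on the same strand overlap 20, so their values are uncertain.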

Additional observations from a re-analysis of the deposited data

Results flagged for a closer look

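In a group of 5 to 7 libraries, a value was picked out where its gap to the nearest other library took up most of the group's range (Dixon's criterion at 95%). This was looked for in 240 groups, over 14 genes and the summed share, and 15 were found. Chance alone flags about 1 in 20 groups, so this number is near what chance gives.

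Several flags fall on the same library. In the NAc control of XXSry mice labelled 34, Rpl22l1 had 40.3 CPM, Rpl6l 8.52 CPM and Rps27 80.2 CPM, each the lowest of its group, and in the PFC of the same animal Rpl39 had 22.5 CPM, the highest. In the PFC control of XX mice labelled 29, Rpl22l1 had 21.5 CPM, Rps27rt 3.07 CPM and Rps4x 105.5 CPM, each the lowest of its group. In the same group Rpl10 had 105.6 CPM in library 10, the highest. In the PFC control of XY-Sry mice labelled 33, Rpl18 had 38.5 CPM and Rpl8 128.3 CPM, the lowest. In the NAc of the stressed XY- mouse labelled 32, Rpl8 had 174.2 CPM and Rplp0 129.9 CPM, the highest.

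Single values were Rpl8 at 154.3 CPM in the NAc of stressed XY-Sry mouse 23, Rps15 at 115.9 CPM in the NAc of XXSry control 51, and Rps27rt at 13.01 CPM in the NAc of stressed XXSry mouse 21.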

How the results depend on the processing

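With the animal as a replicate block or without it, 74 members were higher and 6 lower in the NAc, and the median was 0.36 in both, so the pairing changed no call count there. Library totals gave a median of 0.50 with 3 members lower, and turned Rpl18 to 0.011 and Rplp0 to 0.0079. GC and length offsets gave a median of 0.26 and turned Rpl18 to 0.056. With these offsets the PFC stress medians were -0.027 in XY- mice, 0.038 in XY-Sry mice and -0.10 in the contrast of all 3 factors. DESeq2, run without these offsets, called 2 members lower in this contrast in the PFC. With 2 surrogate variables that contrast had a median of 0.021 in the NAc. Within cohort 2 the XX minus XY median in the PFC was 0.023 and the NAc stress median 0.10, and in cohorts 2 and 3 alone 0 members were lower in XX minus XY in the PFC. Library totals gave a median level of 59.6 CPM in the PFC. Summed exon length gave medians of 32.9 CPM per kb in the PFC and 40.1 CPM per kb in the NAc. The cause of these shifts was not tested, except that a cohort alone holds fewer libraries. Leaving out each library in turn kept 1 member lower for XX minus XY in the PFC in all 48 fits, with a median of -0.03 to -0.02. Leaving out each of 5 animals, the region median was 0.35 to 0.36 with 73 to 74 members higher and 6 lower. The contrast of all 3 factors in the PFC had a median of -0.25 to -0.20.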
